A study of Drosophila melanogaster with 2 samples.

Results

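Peaks at divergent promoters were those whose summit lay nearest to the transcription start site (TSS) of a protein-coding gene that has a partner gene transcribed in the opposite direction from a start close by. A peak was counted when its summit, the position of strongest enrichment, was within 500 bp of the nearest protein-coding TSS and when that TSS had the TSS of another protein-coding gene on the opposite strand within 1000 bp, with the minus-strand start at the lower coordinate. Such an arrangement is called head-to-head. The rule found 1153 such peaks among the 5325 peaks of the set that rests on both replicates, called here the replicated set, which is 21.7% (95% exact binomial interval 20.6 to 22.8%). They were 40.5% of the 2845 peaks within 500 bp of any protein-coding TSS. Of the other promoter peaks, 1326 lay upstream of a nearest start with no divergent partner and 366 lay downstream of one. Such starts are called single promoters here. The class goes by the nearest start, so a gene with a single promoter can belong to a head-to-head pair through another of its starts.

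The peaks come from chromatin immunoprecipitation and sequencing (ChIP-seq) of whole Drosophila melanogaster embryos of 8 to 24 h, according to the source name in the labels, with which a separate age field there disagrees. The flies, strain CG32532-GFP, carried CG32532 fused to enhanced green fluorescent protein (eGFP), and an antibody to GFP recovered the fusion protein with its DNA, which had been sonicated to 200 to 800 bp. The labels give 1 group of 2 biological replicates, so there was no contrast between conditions, and no statistical test was run. The control named in the labels was not used here, the library depths are unknown, and whole embryos mix many tissues, so binding in fewer cells and weaker binding per cell cannot be told apart.

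A divergent promoter places the start sites of neighbouring genes back to back, so that one short stretch of DNA, usually free of nucleosomes, holds the regulatory sequence of both. The arrangement is common in the compact fly genome and is frequent among genes that most cells use, such as those for ribosomes, mitochondria and RNA processing. In flies, promoters of such genes often carry the site TATCGATA bound by the factor DREF, the related core CGATA bound by the insulator protein BEAF-32, or the element Motif 1. CG32532 encodes a predicted homeodomain protein of the paired-like class, and homeodomains of that class commonly recognise TAAT-containing DNA.

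Stretches under 5 divergent peaks are printed because together they show the kinds of sequence found between divergent genes at a summit. All are read on the plus strand of the Release 6 (dm6) genome from NCBI RefSeq, 5′ to 3′, and were limited to sequence outside exons, so that peaks with a summit in an exon were passed over. The first lies under the strongest divergent peak, between Ugalt and eIF2Bbeta at chrX:2703853-2703992, and holds none of the 9 motifs searched, so it has no capitals.
Ugalt/eIF2Bbeta: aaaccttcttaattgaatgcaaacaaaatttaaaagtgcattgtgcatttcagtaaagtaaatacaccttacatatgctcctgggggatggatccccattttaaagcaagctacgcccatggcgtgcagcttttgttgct
In the stretches that follow only the motif named is in capitals, and others of the motifs searched can stand in lower case. The next, between Atat and Shc at chr3L:9426788-9426987, is the strongest with a DREF site, which is in capitals.
Atat/Shc: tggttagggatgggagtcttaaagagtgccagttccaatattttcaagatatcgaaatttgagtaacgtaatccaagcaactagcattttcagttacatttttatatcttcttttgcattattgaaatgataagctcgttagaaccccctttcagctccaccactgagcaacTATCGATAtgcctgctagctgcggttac
The strongest of these with Motif 1, GGTCACACT, whose reverse complement is in capitals here, lies between CG9356 and CG8135 at chr3R:9404270-9404375.
CG9356/CG8135: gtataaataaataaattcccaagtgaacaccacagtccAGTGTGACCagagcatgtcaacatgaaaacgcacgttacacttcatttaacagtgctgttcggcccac
The strongest with a homeodomain core, TAATTA in capitals, lies between Tcs5 and CHMP2B at chr3L:5139396-5139592.
Tcs5/CHMP2B: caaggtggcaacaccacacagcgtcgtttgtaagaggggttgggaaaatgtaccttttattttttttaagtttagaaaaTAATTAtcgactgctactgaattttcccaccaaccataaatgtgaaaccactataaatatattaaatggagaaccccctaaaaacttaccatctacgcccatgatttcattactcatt
The last, between mRpS23 and CenG1A at chr2L:13835359-13835558, is a further strong peak with none of the motifs.
mRpS23/CenG1A: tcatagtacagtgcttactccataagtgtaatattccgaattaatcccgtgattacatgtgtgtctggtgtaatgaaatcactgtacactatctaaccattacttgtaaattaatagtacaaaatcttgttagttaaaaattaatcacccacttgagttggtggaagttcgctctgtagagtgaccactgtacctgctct

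Of all 2640 head-to-head gene pairs in the annotation, 1040 had a divergent peak, or 39.4% (37.5 to 41.3%). In the set that the authors thresholded within replicate 1 alone the share was 34.2%, and in that of replicate 2 it was 41.1% (37.7 ± 4.87%, mean ± SD, n = 2). The bound pairs contained 2070 genes. Of the 5052 genes that belong to a head-to-head pair, 2098 had a summit within 500 bp of a TSS, or 41.5% (40.2 to 42.9%), against 24.3% of all 13968 protein-coding genes. Of the 8916 genes outside such pairs, 1299 had one, or 14.6% (13.8 to 15.3%).

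The 2 replicates gave the same order. In replicate 1's own set 35.8% of paired genes and 11.2% of other genes were bound, and in replicate 2's own set 43.6% and 18.3%. The difference was 24.5 percentage points in replicate 1 and 25.3 in replicate 2 (24.9 ± 0.564, n = 2). A single peak between paired starts counts for both genes, and paired genes had slightly more annotated start sites (a mean of 1.47 against 1.37 per gene). With windows of equal width, counted once per pair at its midpoint, 41.4% of pairs (39.5 to 43.3%) and 12.7% of other genes (12 to 13.4%) held a summit, a ratio of 3.26. The own sets gave ratios of 3.67 for replicate 1 and 2.69 for replicate 2. The window of a pair holds the starts of 2 genes, while each other gene was tested at 1 start only. The ratio is therefore per window and not per promoter. This equal-width count was chosen after the data had been seen. Transcript levels were not measured here.

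The share of pairs with a peak varied with the spacing of the start sites. Pairs over 200 and up to 300 bp apart were bound most often, 265 of 542 or 48.9% (44.6 to 53.2%), followed by those over 300 and up to 500 bp apart, 45.1% of 648 (41.2 to 49.0%). The intervals of these classes overlapped. Pairs up to 100 bp apart (33.7% of 427, 29.2 to 38.4%), over 100 and up to 200 bp apart (30.4% of 355, 25.7 to 35.5%) and over 500 and up to 1000 bp apart (34.6% of 668, 31.0 to 38.3%) were bound less often, and these 3 intervals overlapped one another. The order of the 5 classes was the same in each replicate's own set. In replicate 1's own set the class at over 200 and up to 300 bp reached 43.9% and the lowest class 25.1%, and in replicate 2's own set these were 49.4% and 32.7%. The median spacing was nonetheless close in bound pairs, 302 bp, and unbound pairs, 298 bp, with the lower classes at both ends of the range.

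**Figure D1:**
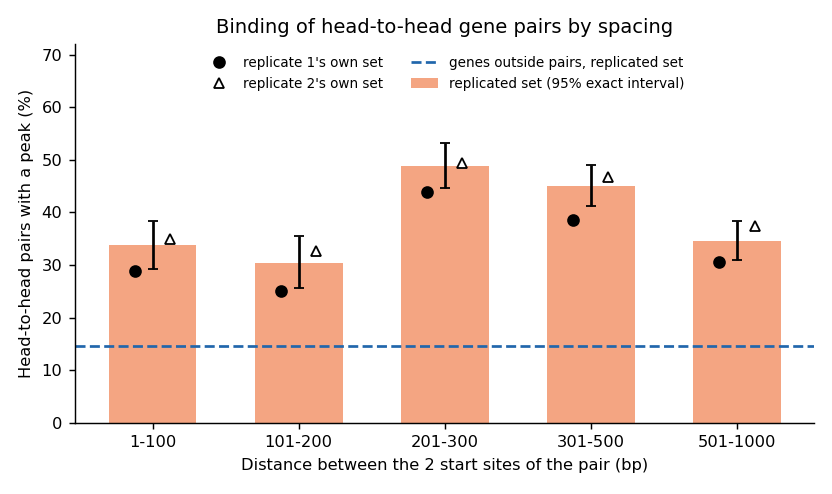
Share of head-to-head gene pairs with a divergent peak (y, %) by the distance between their start sites (x, bp). Bars are the replicated set with 95% exact binomial intervals, circles and triangles are each replicate's own thresholded set, and the dashed line at 14.6% is the share of genes outside such pairs with a summit within 500 bp of a start site. All 5 classes lie above the line, and the class at over 200 and up to 300 bp is the highest at 48.9%. The bars count pairs and the line counts single genes, so the gap between them is not per promoter.

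Summits lay mostly between the start sites. Of the 1153 summits, 914 (79.3%, 76.8 to 81.6%) were in the stretch between the starts, 111 were inside the transcribed side of the minus-strand gene and 128 inside that of the plus-strand gene. Single promoters were alike in this: 78.4% of their 1692 peaks lay upstream of the start, and a summit between paired starts is one upstream of the nearest. The nearest start belonged to the minus-strand gene for 560 peaks and to the plus-strand gene for 593, so neither strand was preferred by a wide margin. The peak region covered both start sites in 261 cases (22.6%), 1 of them in 657 and neither in 235. By the annotation, 733 summits (63.6%) fell outside genes, 252 (21.9%) in a 5′ untranslated exon, 133 (11.5%) in an intron and 18 (1.56%) in a coding exon.

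The summit sat at a typical distance from the nearer start. The median distance to the nearer TSS was 84.0 bp, with an interquartile range of 44.0 to 120.0 bp, and the median to the farther one was 270.0 bp. Of the 914 divergent summits upstream of the nearest start, 591 (64.7%) were 50 to 150 bp from it, compared with 483 (36.4%) of the 1326 peaks upstream of single promoters. Over all peaks of either kind the shares were 51.3% and 28.5%. A summit between paired starts can be no farther from the nearer one than the midpoint, which bounds this distance. In pairs more than 500 bp apart, where that limit is wide, the 238 summits between the starts and within 250 bp of one had a median distance of 89.5 bp (interquartile range 45.0 to 133 bp). The 1007 upstream summits within 250 bp of a single promoter had a median of 117 bp (61.0 to 166 bp), so the ranges overlapped widely.

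The position changed with spacing. Here, and for the signal and the share held by both replicates, peaks are classed by the spacing of the starts they were assigned to, while pairs above were classed by their smallest spacing, and for 1056 of the 1153 peaks (91.6%) both gave the same class. For assigned starts up to 100 bp apart 32.4% of summits lay between the starts, a stretch shorter than most peaks, against 87.3% at over 200 and up to 300 bp and 90.4% at over 300 and up to 500 bp. For starts over 200 and up to 300 bp apart 56.2% of summits were in the central part of the stretch, 33.3 to 66.7% of the way from one start to the other, and the median summit was 37.5 bp from the midpoint and 93.0 bp from the nearer start. For starts over 500 and up to 1000 bp apart 7.23% were in that central part, and the median summit was 274 bp from the midpoint but 89.0 bp from the nearer start. The distance to the nearer start was thus close to 90 bp in the 3 wider classes, whereas the distance to the midpoint was not fixed.

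**Figure D2:**
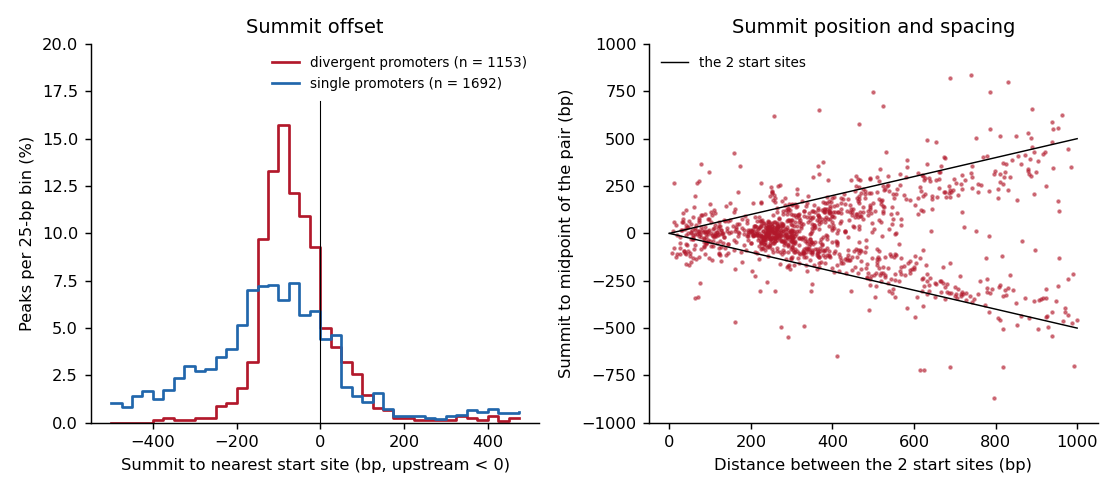
Left, the share of peaks (y, % per 25-bp bin) by the distance from summit to nearest start site (x, bp, negative upstream) for 1153 divergent and 1692 single promoter peaks. Right, the distance of each divergent summit from the midpoint of its pair (y, bp) by the spacing of the starts (x, bp), with the lines marking the start sites. Summits gather at the midpoint in pairs over 200 and up to 300 bp apart and follow either start site in wider pairs.

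A second peak was most frequent in wide pairs. Of the 1040 bound pairs, 934 had 1 divergent peak and 106 (10.2%) had more, and in 73 of these 106 there was a summit nearest to each of the genes. The share with more than 1 peak was 5.56 to 9.25% in the 4 classes up to 500 bp and 18.6% (43 of 231) at over 500 and up to 1000 bp, where 35 of the 43 had a summit at each gene. The median divergent peak region was 360.0 bp wide, and wide pairs offer a longer stretch for a second summit. The part of this in the difference was not tested. Peaks of the same pair are not independent, and 219 of the 1153 peaks shared a pair with another.

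Of the 5 such pairs with the highest summed pooled signal, Ac78C and chb on 3L, 923 bp apart, encode an adenylyl cyclase and a microtubule-binding protein. Its summits, 21172050 and 21172644, reached 2.51 and 3.71 times the median peak in replicate 1 and 2.56 and 4.35 times in replicate 2. The X-linked pair l(1)G0320 and RpS28b, a ribosomal protein gene, 873 bp apart, had one summit with 2.53 and 3.29 times the median peak and another with 5.13 and 2.74 times, in replicates 1 and 2. The replicates thus ranked the RpS28b pair's summits in opposite orders. Trmt6 and Ent2, which encode a tRNA methyltransferase subunit and a nucleoside transporter, have several annotated start sites, so that the summits were assigned to starts 665 and 36 bp apart. The summit assigned to the narrow spacing had the higher values, 6.81 and 5.39 times the median peak, against 2.15 and 0.930 for the other. In Acbp1 and Piezo, the latter a mechanosensitive channel gene, and in CG12093 and Atg2, the latter an autophagy gene, both summits lay in 1 peak region, so they shared replicate values of 2.73 and 3.07, and of 4.89 and 4.57. The authors' signal from the pooled replicates, given per summit, set them apart: it was 539 and 315 at Acbp1 and Piezo, and 876 and 18.4 at CG12093 and Atg2, where the second summit ranked 5215 of 5325.

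The signal is the deposited strength of each peak, whose scale the sources used here do not state, and it is given as a multiple of the median replicated peak of the same replicate. The median divergent peak had 1.27 times that value in replicate 1 and 1.05 times in replicate 2 (1.16 ± 0.153, n = 2). The peaks upstream of single promoters had 1.07 and 1.12 (1.09 ± 0.0353), so the divergent peaks were higher in replicate 1 and lower in replicate 2. The order in replicate 2 turned with the peak set: in the optimal set, the authors' other set of both replicates, divergent peaks had 1.46 and 1.21 and single upstream peaks 1.09 and 1.13, and in replicate 2's own set they had 1.49 and 1.18 against 1.04 and 1.05. For these other sets the base is the median peak of that set, so only the order of classes within a set can be compared. In the replicated set, peaks downstream of single promoters had 0.844 and 0.762, and those away from promoters 0.907 and 0.968, below the divergent peaks in both replicates. Of the 1143 divergent peaks with a value in both replicates, 752 (65.8%) were relatively higher in replicate 1, compared with 46.5% of single upstream peaks and 51.1% of all peaks. The mean of both replicates spanned 0.507 to 25.1 times the median peak, with an interquartile range of 0.814 to 1.96.

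The signal varied with the spacing of the assigned starts in both replicates. In replicate 1 the class medians from the narrowest to the widest were 1.38, 1.37, 1.55, 1.24 and 1.08, and in replicate 2 they were 0.925, 1.06, 1.48, 1.05 and 0.894. The class at over 200 and up to 300 bp was the highest in both, and the class at over 500 and up to 1000 bp the lowest in both. The gap between the replicates was widest for the pairs up to 100 bp apart.

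**Figure D3:**
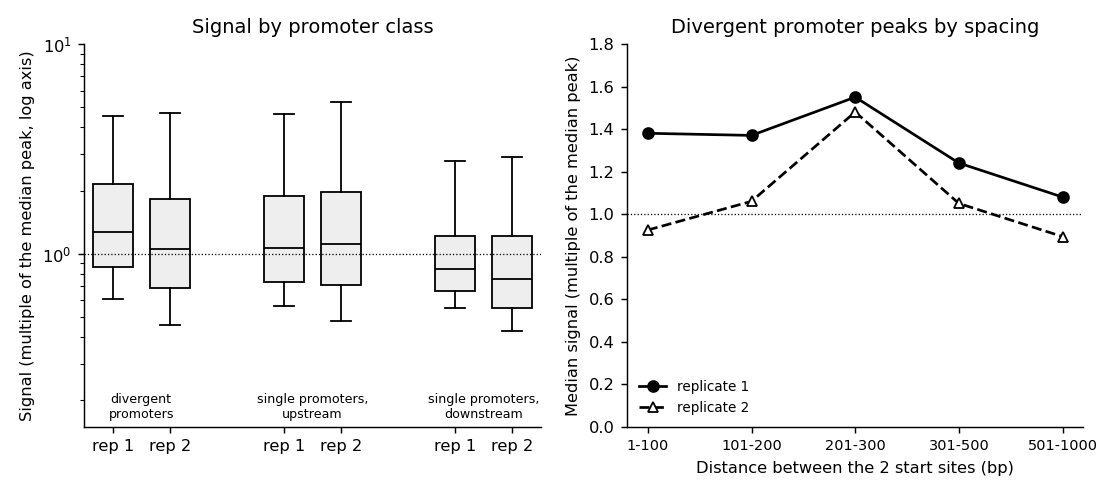
Left, signal per replicate (y, multiple of the median peak, log axis) for divergent, single upstream and single downstream promoter peaks. Boxes span the interquartile range with the median, and whiskers run from the 5th to the 95th percentile. Right, the median signal of divergent peaks (y, multiple of the median peak) by spacing (x, bp) for replicate 1 (circles) and replicate 2 (triangles), with a dotted line at the median peak. Both replicates are highest at over 200 and up to 300 bp, 1.55 and 1.48.

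Divergent peaks were found in both replicates' own thresholded sets in 860 of 1153 cases, or 74.6% (72 to 77.1%), against 63.0% of all 5325 peaks, which includes them. The peaks upstream of single promoters were held by both in 66.2% (63.6 to 68.8%), those downstream in 51.6% and those away from promoters in 57.6%. A further 66 divergent peaks were in replicate 1's own set only, 174 in replicate 2's only and 53 in neither. By spacing, the share held by both was 65.7% at up to 100 bp and 82.0% at over 200 and up to 300 bp. The difference from single upstream peaks lay in replicate 1, which held 80.3% of divergent and 70.1% of single upstream peaks, whereas replicate 2 held 89.7% and 91.2%.

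The strongest and the weakest divergent peaks differed in position and base composition. Of the 354 divergent peaks among the strongest 25% of the replicated set, 83.1% lay between the starts, and of the 211 among the weakest, 60.7%. The 50 bp around the summit had a mean GC content of 29.9% in the strongest and 43.2% in the weakest.

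The strongest divergent peak lay between Ugalt (FBgn0024994), which encodes a transporter of UDP-galactose, and eIF2Bbeta (FBgn0024996), a subunit of the exchange factor for the translation initiation factor eIF2. Its signal was 25.9 times the median peak in replicate 1 and 24.3 times in replicate 2 (25.1 ± 1.16), and it ranked first in the replicated set by pooled signal. The summit, at X position 2703893, was 41 bp upstream of Ugalt and 678 bp upstream of eIF2Bbeta, and the sequence around it is the first printed above.

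The peak between mRpL41, a protein of the large mitochondrial ribosomal subunit, and CG8079 on 2R reached 24.8 and 20.2 times the median peak in replicates 1 and 2. That between Tcs5, a kinase of the KEOPS complex that modifies tRNA, and CHMP2B, an ESCRT-III subunit, reached 20.8 and 17.7. Its summit lay 98 bp from Tcs5 and 126 bp from CHMP2B, near the midpoint. The peak between CG5611 and Mtl reached 18.0 and 15.7, and that between mRpS23, of the small mitochondrial subunit, and CenG1A, an Arf GTPase-activating protein gene, 14.8 and 18.0. Art3, an arginine methyltransferase gene, and mRpS10, again of the small mitochondrial subunit, shared a peak of 15.8 and 16, with the summit 131 and 126 bp from their starts.

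Of the 15 strongest, 4 were at genes of mitochondrial ribosomal proteins, which had 33 of all 1153 divergent peaks (2.86%). The medians of those 33, 1.23 and 0.911 in replicates 1 and 2, were below those of all divergent peaks, 1.27 and 1.05. The last of the 4 was at mRpL23 with CG9004 (15.2 and 13.3 times the median peak), where the starts are 50 bp apart and the summit lay 81 bp inside mRpL23. The peak at CG7601 and CIA30, the latter an assembly factor of respiratory complex I, had 15.5 and 14.4, and that at PNPase, a polyribonucleotide nucleotidyltransferase, and Gprk2, a kinase of G protein-coupled receptors, had 14.4 and 15. The summit of the PNPase pair was in a 5′ untranslated exon, 81 bp inside PNPase. The other 6 ranged from 11.3 to 13.7 times the median peak in replicate 1 and from 10 to 14.2 in replicate 2. They were at CG13390 with CG17294 (13.3 and 14.2), at the peroxisome gene Pex11ab with CG8320 (13.7 and 10.6), and at Chro, a chromodomain protein gene, with Ssl1, of the general factor TFIIH (12.2 and 11.8). The last 3 were at Atat, a tubulin acetyltransferase gene, with Shc, a signalling adaptor gene (13.2 and 10.2), at CG1275 with Elp5, of the Elongator complex (11.6 and 11.7), and at Mnat9 with CG1792 (11.3 and 10). All 15 were in both replicates' own sets, and 1 of the 15, Atat and Shc, held a DREF site.

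Close and wide pairs alike reached the strongest 25% of peaks. The closest were CG3032 and CG4593 on X, 6 bp apart (2.89 and 2.76 times the median peak in replicates 1 and 2), and SerRS, a seryl-tRNA synthetase gene, with CG17260, 8 bp apart (3.73 and 2.61). The widest were Ank2, an ankyrin gene, with Mcad, a fatty acid dehydrogenase gene, 955 bp apart (1.85 and 1.72), RpS7 with Anp, a gene for an antibacterial peptide of the male tract, 928 bp apart (2.11 and 1.60), and CG30122 with CheA56a, 924 bp apart (2.65 and 1.61).

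Peaks near the limits of the rule were as follows. Just inside 500 bp, the peak at ATPsynCF6 and Sec13 was 497 bp from a start (1.51 and 2.17 times the median peak in replicates 1 and 2) and that at Nop56 and mats 491 bp (1.61 and 2.07). Just outside, the peak at Dlc90F and its partner was 507 bp away (0.837 and 0.659) and that at mRpS18B and Kua 509 bp (0.921 and 0.536). At the limit of spacing, hts and CalpA with 999 bp (0.912 and 0.935) and CG7656 and RhoGAP71E with 993 bp (0.669 and 0.878) were inside. The pairs raptor and Nep1 with 1004 bp (0.901 and 0.804) and Rgk1 and CG11961 with 1007 bp (0.620 and 0.428) were outside.

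Motifs were searched on both strands in the 200 bp around each summit, and also around the midpoint of every head-to-head pair, where the window does not depend on the peak. A match is a description of the letters and not evidence of a bound factor. The DREF site TATCGATA was in 139 of 1153 divergent peaks, or 12.1% (10.2 to 14.1%), and in 5.81% (4.61 to 7.20%) of single upstream peaks, 4.51% of all peaks and 6.15% of 200-bp windows at all 19276 protein-coding start sites. The order held in the own sets of replicate 1 (13.6% against 6.93%) and replicate 2 (11.3% against 3.73%). At the pair midpoints, however, it was in 9.04% (7.37 to 10.9%) of bound and 8.31% (7.01 to 9.77%) of unbound pairs. Its share at the midpoint was thus similar whether or not a divergent peak was found. In the divergent peaks that had it, the site was a median of 45.0 bp from the summit, and within 50 bp in 80 of 139 (57.6%). The 200-bp window bounds this distance, and the share for evenly placed sites was not computed. Over the 9 motifs searched, the share within 50 bp ran from 30.4 to 76.5%.

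The shorter BEAF-32 core CGATA, which every DREF site contains, was in 48.0% (45.0 to 50.9%) of divergent peaks, 35.1% (32.5 to 37.7%) of single upstream peaks and 36.5% of all start sites. Among the 1014 divergent peaks with no DREF site, 414 (40.8%) had it, against 31.1% of the 1249 such single upstream peaks. At the midpoints it was in 40.9% of bound and 41.8% of unbound pairs. Motif 1 was in 46 divergent peaks, or 3.99% (2.94 to 5.29%), against 3.24% of single upstream peaks, 2.45% of all start sites, and 3.17% of bound and 5.06% of unbound midpoints, and 3 peaks had both Motif 1 and a DREF site. Peaks with Motif 1 had median signals of 0.957 and 0.775 in replicates 1 and 2, against 1.30 and 1.07 without it. Their mean GC content in the 50 bp at the summit was 41.7%, against 35.5% without it, and its part in the signal was not tested.

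The GAGA element GAGAG was less frequent at divergent peaks. It was in 15% (13.0 to 17.2%), against 33.3% (30.7 to 35.9%) of single upstream peaks and 25.2% of all start sites. In replicate 1's own set the values were 15.6% and 27.1%, and in replicate 2's 17.1% and 38.1%. The midpoints of bound and unbound pairs had 13.3% and 15.5%, so a low share was also found at the midpoints of pairs with no peak. The E-box CAGCTG was in 12.7% of divergent peaks, 12.4% of single upstream peaks and 11.9% of all start sites. In replicate 1's own set it was in 15.4% of divergent and 11.7% of single upstream peaks, and in replicate 2's in 11.4% and 12.2%, so the order differed between the replicates.

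The homeodomain core TAATTA was in 229 divergent peaks, or 19.9% (17.6 to 22.3%), against 14.1% (12.3 to 16.1%) of single upstream peaks and 14.0% of all start sites. The replicates' own sets gave 17.4% and 20% for divergent and 15.6% and 13.2% for single upstream peaks. At the midpoints it was in 24.5% (21.9 to 27.3%) of bound and 19.9% (18.0 to 22.0%) of unbound pairs, and these intervals just overlapped. The paired-class palindrome, TAAT and ATTA separated by any 3 bases, was in 34 divergent peaks (2.95%), 2.94% of single upstream peaks and 1.99% of all start sites, and in 4.23% of bound and 2.88% of unbound midpoints. In 26 of the 34 divergent peaks it lay within 50 bp of the summit, a distance that the 200-bp window bounds.

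Base composition moved with these AT-rich motifs. The 200 bp at the midpoint had a mean GC content of 32.2% in bound and 35.2% in unbound pairs, and the TATA box letters TATAAA, also AT-rich, were in 45.6% (42.5 to 48.7%) of bound and 36.4% (34.1 to 38.9%) of unbound midpoints. At divergent and single upstream peaks TATAAA was in 38.1% and 31.1%, and in 33.5% of all start sites. Divergent peaks with TAATTA had signals of 1.39 and 1.19 times the median peak in replicates 1 and 2, against 1.24 and 1.03 without it, and a mean GC content of 30.3% against 37.1% in the 50 bp at the summit. The part of base composition in the motif shares was not tested. The initiator letters TCAGTT were in 10.3% of divergent peaks, 13.3% of single upstream peaks and 15.3% of all start sites, and in 10.3% of bound and 16.5% of unbound midpoints. None of the DREF site, Motif 1, GAGA element, homeodomain core and E-box was found in 557 divergent peaks (48.3%). The same share was not computed for other peaks or start sites, so it has no background to be read against.

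**Figure D4:**
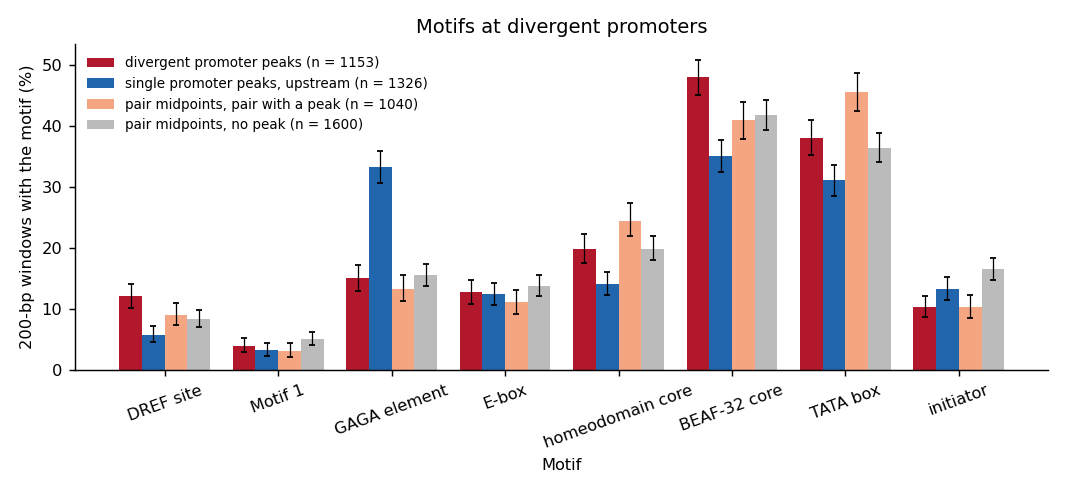
Share of 200-bp windows holding each motif on either strand (y, %) for divergent peaks, single upstream peaks, and the midpoints of head-to-head pairs with and without a divergent peak. Error bars are 95% exact binomial intervals, which cover the counting of windows only. The GAGA element separates single promoters (33.3%) from the 3 groups at head-to-head pairs, and the DREF site is close in bound and unbound midpoints, 9.04 and 8.31%.

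By function, the lists of genes, chosen by symbol, are read against all protein-coding genes, of which 36.2% (5052 of 13968) are in a head-to-head pair and 41.0% of those (2070) are in a bound one. Cytoplasmic ribosomal proteins stood above this, with 48 of 56 paired genes (85.7%, 73.8 to 93.6%) in a bound pair, and 48 and 51 of them in the own sets of replicates 1 and 2. Their genes outside pairs were also bound often, 24 of 37 (64.9%, 47.5 to 79.8%), so the high share was not limited to the divergent ones. The strongest were RpL7 with Ripalpha (7.53 and 3.88 times the median peak in replicates 1 and 2) and RpS27 with the nucleoporin gene Nup37 (7.28 and 3.92). Of the 59 divergent peaks at such genes, 27.1% had a DREF site.

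Mitochondrial genes followed. Of the mitochondrial ribosomal protein genes, 58 of 73 (79.5%) were in a head-to-head pair and 31 of the 58 (53.4%, 39.9 to 66.7%) in a bound one, 30 and 35 in the replicates' own sets. That interval includes the share of all paired genes. Of those outside pairs, 2 of 15 (13.3%) were bound. Of the 43 paired genes of oxidative phosphorylation, 18 (41.9%) were in a bound pair, close to the share of all paired genes, and 3 of 41 outside pairs (7.32%) were bound. The strongest of these were ND-ASHI, a complex I subunit, with the fumarase gene Fum1 (5.46 and 7.35 times the median peak), and ND-MWFE, also of complex I, with the peptidase gene TppII (3.79 and 3.07).

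Genes of transcription and RNA processing were often paired. Of the general transcription and Mediator genes, 44 of 62 (71.0%) were in a head-to-head pair and 22 of these 44 (50%, 34.6 to 65.4%) in a bound one, 18 and 21 in the replicates' own sets. Examples were Taf5, of TFIID, with the peroxisome gene Pex6 (3.95 and 4.42 times the median peak), and MED30 with the DNA polymerase gene Rev1 (4.27 and 3.17). Of the splicing genes 24 of 27 (88.9%) were paired and 11 of the 24 (45.8%) bound, with snRNP-U1-C and gukh at 2.84 and 3.18 and Sf3b6 with Tnpo, a nuclear import receptor gene, at 2.44 and 2.18. Replicate 1's own set held 8 of the splicing genes and replicate 2's 13.

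Among protein synthesis and turnover, 11 of 23 paired tRNA synthetase genes (47.8%), 9 of 25 translation factor genes (36.0%) and 11 of 26 proteasome genes (42.3%) were in a bound pair. GluProRS with the clathrin adaptor gene AP-1sigma had 4.37 and 3.28 times the median peak, eIF3c with the neuropeptide receptor gene CCHa1-R 2.71 and 1.96, and the proteasome genes Rpn3 with l(2)37Bb 2.26 and 1.97 and Rpn6 with ave 2.42 and 1.30. Of the cell cycle list, 7 of 17 paired genes (41.2%) were in a bound pair, with Cdc16, of the anaphase-promoting complex, and the oocyte gene orb at 4.18 and 4.06, and Cdk12 with the centriole kinase gene SAK at 1.56 and 2.05. DNA replication genes had the lowest share of the 10 lists with any bound pair, 3 of 16 (18.8%, 4.05 to 45.6%), and 4 in each replicate's own set. Of these 10 lists, the interval of cytoplasmic ribosomal proteins alone left out the share of all paired genes. The strongest of the DNA replication list, PolD2, a subunit of DNA polymerase delta, with CG13933, reached 7.53 and 8.07, and Mcm2, of the replicative helicase, with RPA1, 3.25 and 1.72.

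Lists of genes used in particular tissues had few divergent promoters. Of 117 cuticle protein genes, 12 (10.3%) were in a head-to-head pair and 0 of these in a bound one, which allows a share of up to 26.5%. That limit is below the 41.0% of all paired genes, but in 4 pairs both genes were on this list, so the 12 are not independent. Of the 105 outside pairs 0 were bound, which allows up to 3.45%. Of 38 developmental transcription factor genes, 1 (2.63%) was in a head-to-head pair and it was not bound, whereas 5 of the other 37 (13.5%) were bound. CG32532 itself was not in a head-to-head pair.

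**Figure D5:**
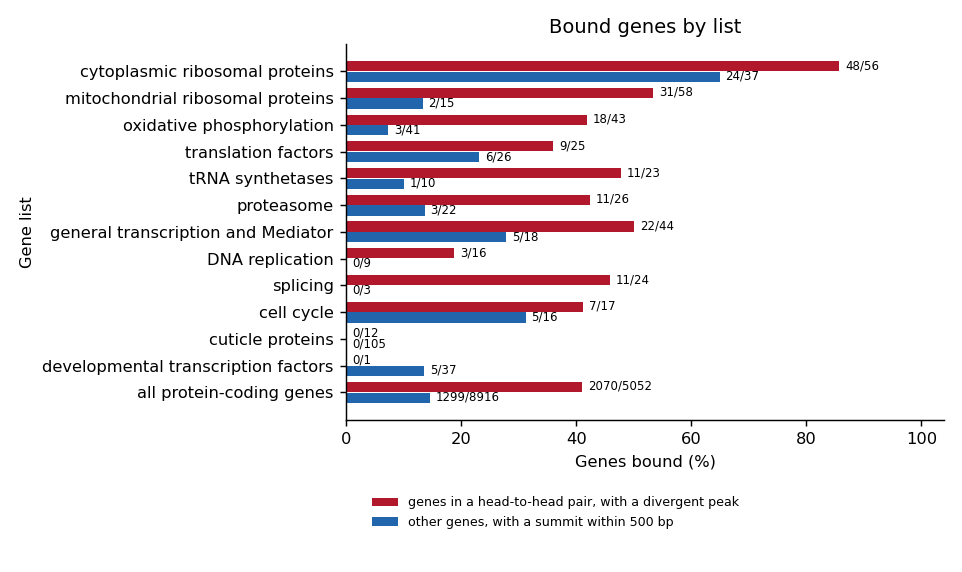
Share of genes bound (x, %) by gene list (y), for genes in a head-to-head pair with a divergent peak (red) and for other genes with a summit within 500 bp of a start (blue), with the counts beside each bar. The bars carry no intervals, which stand in the text for the lists with the highest shares. Cytoplasmic ribosomal proteins are the highest in both, 48 of 56 and 24 of 37, and the bottom bars give all protein-coding genes.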

How the data were processed

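The deposited files are peak lists on dm6, per the labels. No source used here names the aligner or the peak caller. The signal values were made by the authors' peak caller and deposited per peak. Their scale is not stated, so each was divided by the replicate's median over the replicated peaks. Where another peak set was used, the median was taken over the peaks of that set. The value of a peak in a replicate is that of the strongest peak overlapping it (at least 1 bp) in the deposited ranked list of that replicate. The replicated set is the authors' conservative set passed by the irreproducible discovery rate, and each replicate's own set was thresholded by the authors on that replicate. The files hold no read counts, so the depth is unknown. The series-level ranked lists hold 16 further unnamed columns, which were not used.

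Protein-coding genes and start sites came from Ensembl release 115, and sequence from NCBI RefSeq Release 6. Positions count from 1. A list's pair is bound when a divergent peak was assigned to it. Counting and motif search were tested on simulated data. Python 3.11.15, numpy 2.4.6, pandas 2.3.3, scipy 1.17.1 and matplotlib 3.10.9 were used. Shares have 95% Clopper-Pearson intervals, which cover the counting of peaks, pairs or windows only and are too narrow where items share a pair.

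Genes were named by rule: the 15 peaks with the highest mean of both replicates, up to 5 pairs with several peaks by summed signal, the 3 closest and 3 widest pairs of the strongest 25%, the 2 strongest pairs of each of the 12 lists, and the 2 peaks nearest each limit on either side. Of the 3 closest pairs, 1 is not reported here. Printed sequences are the strongest outside 2R for each kind. The members and lists were chosen with earlier results of these data known. Alternatives changed the peak set, the limits, the start sites, the window, the overlap and the replicates used.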

Additional observations from a re-analysis of the deposited data

How the results depend on the processing

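Of 63 values recomputed under alternatives, 44 stayed within their intervals, replicate spread or 1.5 times the count, and 19 moved. The strongest peaks alone, the upper 50% of the replicated set, held 663 divergent peaks at 641 pairs, fewer by construction. In them 84.6% of summits lay between the starts, 95.9% were held by both replicates and 1.81% had Motif 1. The share between the starts was 76.5 to 83.7% in the replicates' own sets and 73.3% with 1 start site per gene. The share held by both was 64.9% in the optimal set, 71.9 to 87.6% in the replicates' own sets and 71.8% when an overlap of 50% was required. In an own set that replicate holds every peak by construction, so 71.9 to 87.6% are the shares held by the other replicate. The median signal was 1.34 in the optimal set and 1.07 to 1.34 in the own sets. Each is a multiple of the median peak of its own set, so the values do not share a base. Narrower windows hold fewer motifs by construction: the DREF site was in 6.5% of 100-bp and 19.3% of 400-bp windows, and Motif 1 in 1.04% and 10.2%. The share of pairs with a summit within 500 bp of the midpoint was 41.4%, an alternative chosen after seeing the data. For the other shifts the cause was not tested.

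Divergent peaks had medians of 1.16 and 0.975 in replicate 1's own set, against 1.08 and 1.11 for single upstream peaks, and of 1.49 and 1.18 in replicate 2's own set, against 1.04 and 1.05, so the order of the classes in replicate 2 depended on the set. These medians too are multiples of the median peak of each own set. Of the peaks in replicate 1's own set, 87.6% of both classes were also in replicate 2's own set. No paired analysis was possible because the labels give 1 group. Unknown depth, 2 replicates of 1 transgenic strain and the unused control limit every value.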

Other observations

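The arms differed in how many of their peaks were divergent. Divergent peaks were 15.4% of the peaks of X (160 peaks) and 21.9 to 25.8% of those of 2L, 2R, 3L and 3R (216 to 308 peaks each). The share of head-to-head pairs with a peak varied less, from 36.8% on X (32.1 to 41.7%) to 42.2% on 3R (38.4 to 46.1%), and these intervals overlapped. In replicate 1's own set X had 29.1% of its pairs bound, and in replicate 2's 37.3%. The median signal of divergent peaks on X was 0.979 and 0.922 times the median peak in replicates 1 and 2, below those of the other 4 large arms in both replicates (1.30 to 1.46 and 1.03 to 1.21). Signal by arm was not computed for the other peaks, so the low values on X are not shown to be particular to divergent peaks. On chromosome 4, 0 of 11 pairs had a replicated divergent peak, which allows a share of up to 28.5% (exact interval), and replicate 2's own set had 18.2%.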
